A study of Mus musculus with 2 samples.

Results

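The 10 genes described here encode the 5 subunits of the transcription factor NF-κB (Rela, Rel, Relb, Nfkb1 and Nfkb2), 4 IκB family proteins (Nfkbia, Nfkbib, Nfkbie and Nfkbiz) and the ubiquitin-editing enzyme A20 (Tnfaip3). They were chosen by symbol among the 24532 gene IDs of the count table, after the difference between the 2 libraries was known, so the values of that difference below are a description and not a test. RNA-seq was run on freshly sorted muscle stem cells (MuSCs), the Pax7-positive cells that rebuild skeletal muscle after injury, from male C57BL/6 mice, with 1 library of double-knockout (dKO) and 1 library of wild-type (WT) cells. The dKO mice carried Pax7-CreER, in which the Pax7 promoter drives a Cre recombinase that needs tamoxifen to act, a Cre-deletable allele of another gene, and Esr2-/-, the loss of both copies of the estrogen receptor beta gene. Per the labels' protocols, which are the same for both groups, tamoxifen (20 mg/mL) was given by mouth on 5 days in a row to mice aged 3 months, and limb muscle cells were sorted for Vcam1, without CD31, CD45 or Sca1. Both sample titles also carry the mark 6M, which the labels do not explain. The cells were not cultured before RNA extraction. How many mice went into a library, and whether Cre acted in every sorted cell, was not stated in those labels.

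NF-κB subunits act as dimers. Rela, Relb and Rel carry a domain that switches genes on, whereas Nfkb1 and Nfkb2 encode long precursors that are cut to short DNA-binding partners and whose uncut form holds other subunits back. IκBα, IκBβ and IκBε, from Nfkbia, Nfkbib and Nfkbie, keep dimers in the cytoplasm until the IKK kinase marks them for destruction, and IκBζ from Nfkbiz is a nuclear relative that works with bound dimers at selected genes. Nfkbia and Tnfaip3 are classical NF-κB targets whose products switch the signal off again. In skeletal muscle the pathway is known for its part in inflammation, in wasting and in the control of myogenic genes.

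The dKO library held 43699831 and the WT library 36636680 reads assigned to transcripts, and 14885 genes had at least 10 counts in the higher library and are called measured. With 1 library per group no difference has a replicate check, and intervals (95%) cover counting error only. Esr2, whose deleted part the labels do not state, had 45 counts in dKO and 71 in WT, which checks nothing about the label. All 10 muscle stem cell markers were measured and 0 of them were 2-fold apart, with 4 above and 6 below a log2 ratio of 0. Pax7 itself stood at 315 CPM (reads per mega-read of scaled library size) in dKO and 558 CPM in WT, 1.77-fold lower in dKO (1.73 to 1.81), and under scaling by library totals alone 1 of the markers was lower by 2-fold. Their summed level of 9991 CPM in dKO and 7981 CPM in WT included Sdc4, at 4872 CPM in dKO and 2980 CPM in WT. Markers of cell types that the sort should leave out were lower in dKO by 2-fold in 12 of 15 endothelial, 16 of 18 measured immune and 6 of 10 fibro-adipogenic progenitor genes. The endothelial list summed to 393 CPM in dKO and 892 CPM in WT, the immune list to 87.9 CPM in dKO and 292 CPM in WT, and the progenitor list to 2264 CPM in dKO and 3117 CPM in WT. Col3a1, at 910 CPM in dKO and 897 CPM in WT, was part of the progenitor sum. So was Cd34, at 482 CPM in dKO and 473 CPM in WT. S100a8 and S100a9, neutrophil genes of the immune list, were listed at 0 in dKO. Fewer cells of a type and less RNA per cell cannot be told apart in these bulk libraries.

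The start-site sequences of the genes are shown because the DNA element that NF-κB binds, the κB site, is defined by its letters. RefSeq windows on GRCm38.p6, each running from 250 bases before to 50 bases after an annotated start, were on hand for 7 of the 10 genes. Nfkb1, Relb and Nfkbiz had no window. Capitals mark each match to the κB consensus, searched on both strands, and sequences run 5′ to 3′ along the gene. The first is that of Tnfaip3, the gene that was lower in dKO by 2-fold. Nfkbib, higher by 2-fold, has no match in its window, and Nfkbia, Nfkb2 and Rel are shown as genes with matches whose levels were less far apart.
Tnfaip3, chr10:19015361-19015660, minus strand: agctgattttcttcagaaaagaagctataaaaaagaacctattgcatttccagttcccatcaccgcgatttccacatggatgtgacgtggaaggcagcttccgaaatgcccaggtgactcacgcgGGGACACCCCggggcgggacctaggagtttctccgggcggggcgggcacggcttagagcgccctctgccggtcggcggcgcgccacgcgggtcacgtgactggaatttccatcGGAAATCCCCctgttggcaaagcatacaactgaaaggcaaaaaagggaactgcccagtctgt
Nfkbib, chr7:28766595-28766894, minus strand: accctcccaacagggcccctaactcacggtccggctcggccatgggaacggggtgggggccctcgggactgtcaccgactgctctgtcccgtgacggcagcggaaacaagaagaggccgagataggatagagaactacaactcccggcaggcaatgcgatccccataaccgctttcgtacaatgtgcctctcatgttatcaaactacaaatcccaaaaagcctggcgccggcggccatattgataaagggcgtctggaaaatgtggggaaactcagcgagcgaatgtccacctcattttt
Nfkbia, chr12:55492598-55492897, minus strand: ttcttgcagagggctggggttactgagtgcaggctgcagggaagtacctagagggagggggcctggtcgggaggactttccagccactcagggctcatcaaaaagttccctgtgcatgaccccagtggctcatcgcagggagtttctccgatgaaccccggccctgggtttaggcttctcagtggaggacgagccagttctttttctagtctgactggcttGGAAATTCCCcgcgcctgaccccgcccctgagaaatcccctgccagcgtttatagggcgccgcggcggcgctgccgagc
Nfkb2, chr19:46304487-46304786, plus strand: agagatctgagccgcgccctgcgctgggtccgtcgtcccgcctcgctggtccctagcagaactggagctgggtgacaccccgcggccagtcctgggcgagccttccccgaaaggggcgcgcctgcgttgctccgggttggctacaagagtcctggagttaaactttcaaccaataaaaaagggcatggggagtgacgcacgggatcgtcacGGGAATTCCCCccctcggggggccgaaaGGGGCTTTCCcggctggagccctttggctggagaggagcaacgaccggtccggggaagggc
Rel, chr11:23770920-23771219, minus strand: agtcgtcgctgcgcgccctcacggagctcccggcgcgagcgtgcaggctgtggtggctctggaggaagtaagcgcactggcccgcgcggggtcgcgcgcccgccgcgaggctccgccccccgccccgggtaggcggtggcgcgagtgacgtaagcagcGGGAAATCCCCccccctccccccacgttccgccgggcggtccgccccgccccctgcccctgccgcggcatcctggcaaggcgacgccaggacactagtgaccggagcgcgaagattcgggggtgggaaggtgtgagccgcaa

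A κB consensus match was present in the windows of 5 of the 7 genes (Tnfaip3, Rel, Nfkbia, Nfkbie and Nfkb2), whereas 8.46% of all 32851 windows and 9.55% of the 27025 genes with a window held one. In the Tnfaip3 window shown the matches began 125 and 12 bases before the start, and the other window of that gene held none. In Nfkbia the single match began 29 bases before the start. The first of 3 Nfkb2 windows held overlapping matches beginning 39 and 38 bases before the start and another at 11 bases. Rel held overlapping matches at 92 and 91 bases. The windows of Rela and Nfkbib held none. A match is a description of letters and not evidence of binding, and matches were seen in genes higher and lower in dKO alike.

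Nfkb1 had by far the largest difference among the 10 genes. It had 80464 counts in dKO (79909 to 81022) and 18312 in WT (18048 to 18579), which is 2011 CPM in dKO and 458 CPM in WT. The dKO library was thus the higher one by 4.39-fold (4.32 to 4.46). On the log2 scale used for all calls, log2 of (dKO CPM + 1) over (WT CPM + 1), this was 2.13, and 21 of the 14885 measured genes had a higher ratio. Nfkb1 (Entrez ID 18033) lies on chromosome 3 at 135584655 to 135691969 on GRCm38, has a single row in the table and shares no exon with another gene in GENCODE M21.

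The remaining subunits differed less. Rela, the main activating subunit, had 28433 counts in dKO and 14951 in WT (710 CPM in dKO and 374 CPM in WT), 1.90-fold higher in dKO (1.86 to 1.94). Its log2 ratio of 0.92 lay just short of the 2-fold line at 1. Nfkb2, the precursor subunit of the non-canonical branch, had 22608 counts in dKO and 13037 in WT (565 CPM in dKO and 326 CPM in WT), 1.73-fold higher in dKO (1.70 to 1.77). Relb, its usual partner, had 6537 counts in dKO and 4212 in WT (163 CPM in dKO and 105 CPM in WT), 1.55-fold higher in dKO (1.49 to 1.61). Rel, the subunit best known from lymphocytes, was the scarcest of the 10 genes and went the other way. It had 633 counts in dKO and 763 in WT (15.8 CPM in dKO and 19.1 CPM in WT), 1.21-fold lower in dKO (1.08 to 1.34). Nfkb2 shares at most 299 bases of exon sequence with Psd and 501 with AC114539.1, both on the opposite strand. Since the strand setting of the counting is not given, reads in that overlap may not be told apart. Psd itself had 46 counts in dKO and 34 in WT.

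**Figure D1:**
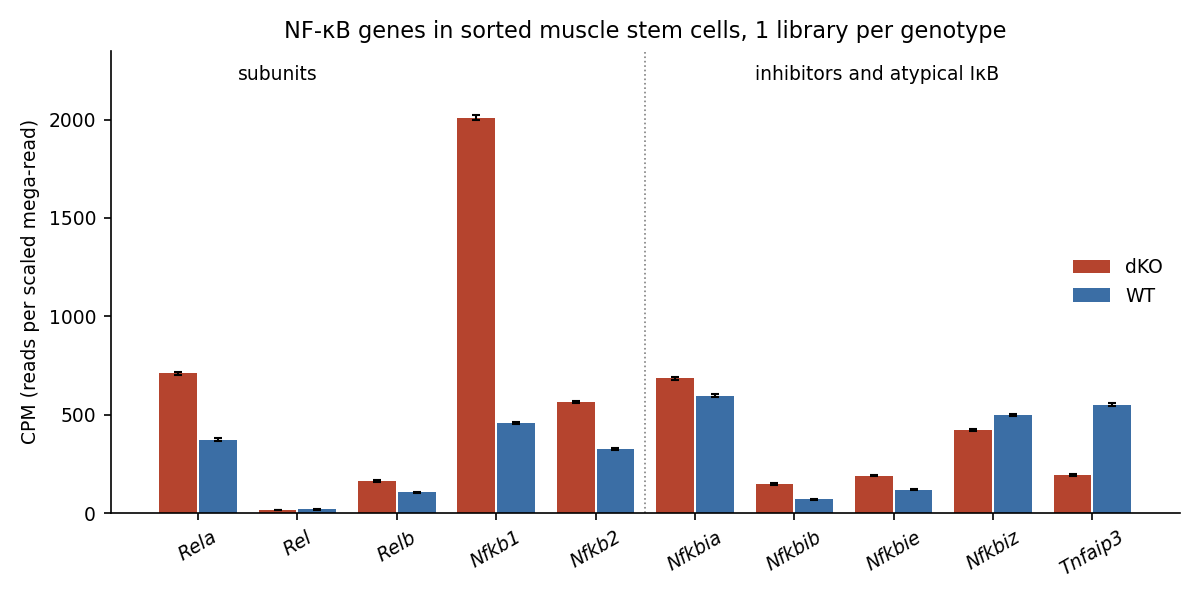
CPM of each gene in the dKO (red) and WT (blue) library, with exact 95% Poisson intervals that cover counting error only. Nfkb1 stands at 2011 CPM in dKO and 458 CPM in WT, and Tnfaip3 at 193 CPM in dKO and 551 CPM in WT.

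Among the inhibitors, Tnfaip3 and Nfkbib were 2-fold apart, in opposite directions. Tnfaip3, whose product A20 trims ubiquitin chains from signalling adaptors, had 7727 counts in dKO (7556 to 7901) and 22045 in WT (21755 to 22338), which is 193 CPM in dKO and 551 CPM in WT. It was 2.85-fold lower in dKO (2.78 to 2.93), with a log2 ratio of −1.51, and 178 of the measured genes had a lower one. Summed over the lists above, endothelial markers stood in dKO at 0.441, immune markers at 0.301 and progenitor markers at 0.726 of their WT level. Tnfaip3 stood at 0.350. In WT these lists summed to 892, 292 and 3117 CPM, in the same order, beside 551 CPM for Tnfaip3. The progenitor sum includes the abundant Col3a1 and Cd34, which were nearly equal in dKO and WT. Endothelial and immune cells are known to express Tnfaip3, and the part of their RNA in this result was not tested.

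Nfkbib had 5939 counts in dKO and 2854 in WT (148 CPM in dKO and 71.3 CPM in WT) and was 2.08-fold higher in dKO (1.99 to 2.18). With a log2 ratio of 1.05 it lay just past the 2-fold line, and scaling by library totals alone gave 0.80. Relative to the median of all measured genes it was higher by 1.07 under the main scaling and by 1.04 under totals. Scaling moves a gene and that median together, so these values are close by construction and do not check the call. The gene shares exon sequence with Ccer2 and Sirt2 on the opposite strand. Ccer2 had 16 counts in dKO and 3 in WT, while Sirt2, which shares at most 42 bases of an exon, had 8975 in dKO and 8252 in WT.

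Nfkbie, Nfkbia and Nfkbiz were less than 2-fold apart. Nfkbie had 7628 counts in dKO and 4761 in WT (191 CPM in dKO and 119 CPM in WT), 1.60-fold higher in dKO (1.54 to 1.66). Nfkbia, the fast-responding feedback inhibitor, had 27396 counts in dKO and 23817 in WT (685 CPM in dKO and 595 CPM in WT), 1.15-fold higher in dKO (1.13 to 1.17). Its log2 ratio of 0.20 became −0.05 under library totals, a scaling that moved the median of all measured genes by −0.22. Relative to that median, Nfkbia was higher by 0.23 under the main scaling and by 0.19 under totals, again close by construction. Nfkbiz had 16951 counts in dKO and 19940 in WT (424 CPM in dKO and 498 CPM in WT), 1.18-fold lower in dKO (1.15 to 1.20).

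Of the 10 genes, all of which had at least 500 counts, 2 were higher in dKO by 2-fold (Nfkb1 and Nfkbib), 1 was lower (Tnfaip3) and 7 were neither. Among all measured genes 1.92% were higher and 4.30% lower by the same rule, and among the 8465 genes with at least 500 counts, a limit chosen after the data were seen, 2.52% were higher and 3.07% lower. Library totals alone called 130 genes higher and 1040 lower, against 286 and 640 under the main scaling. The median log2 ratio was 0.65 over the 10 genes, −0.02 over all measured genes and 0.07 over those with at least 500 counts. Since the genes were chosen with this contrast known, nothing is read from these shares.

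**Figure D2:**
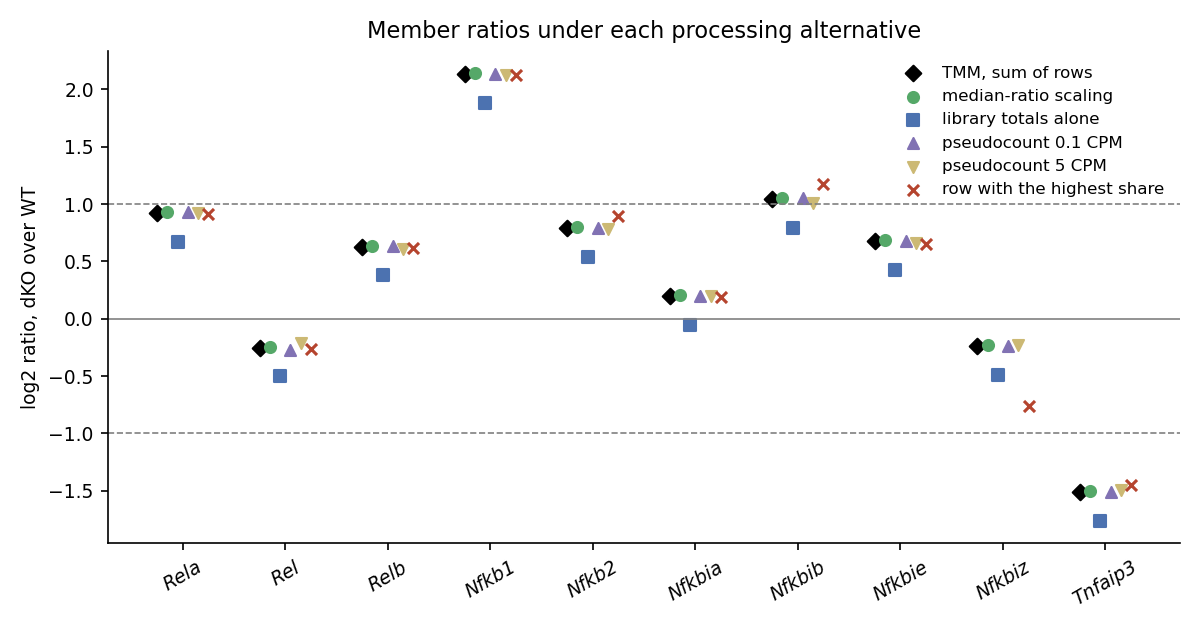
log2 ratio of dKO over WT for each gene under the main processing and 5 alternatives, with dashed lines at 2-fold. Nfkb1 stays between 1.88 and 2.14 and Tnfaip3 between −1.76 and −1.45, while Nfkbib lies below the line at 0.80 under library totals and Nfkbia lies on both sides of 0.

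Ratios between genes within a library do not depend on how the libraries are scaled. The count ratio of Nfkb1 to Rela was 2.83 in dKO and 1.22 in WT, a 2.31-fold difference (2.25 to 2.37, from counting error). That of Nfkb1 to Nfkb2, the other precursor gene, was 3.56 in dKO and 1.40 in WT, or 2.53-fold apart (2.47 to 2.60). Nfkb2 to Relb differed little, at 3.46 in dKO and 3.10 in WT (1.12-fold, 1.07 to 1.17). Rel to Rela was 0.0223 in dKO and 0.0510 in WT, 2.29-fold lower in dKO (2.06 to 2.55). Against Rela, Nfkb1 and Rel thus lay apart by similar factors in opposite directions.

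The IκB family genes and Tnfaip3 shifted to unequal degrees against Rela, which was itself 1.90-fold higher in dKO under the main scaling. Nfkbia and Nfkbie, lower against Rela, were 1.15-fold and 1.60-fold higher in dKO by that scaling. Nfkbia to Rela was 0.964 in dKO and 1.59 in WT, 1.65-fold lower in dKO (1.61 to 1.70). Nfkbiz to Rela was 0.596 in dKO and 1.33 in WT, 2.24-fold lower in dKO (2.17 to 2.30). Tnfaip3 to Rela was 0.272 in dKO and 1.47 in WT, 5.43-fold lower in dKO (5.25 to 5.61). Tnfaip3 also parted from Nfkbia, the other classical feedback target, with a ratio of 0.282 in dKO and 0.926 in WT, 3.28-fold lower in dKO (3.18 to 3.39). Nfkbib to Rela, at 0.209 in dKO and 0.191 in WT, was 1.09-fold higher in dKO (1.04 to 1.15), and Nfkbie to Rela, at 0.268 in dKO and 0.318 in WT, was 1.19-fold lower (1.14 to 1.24).

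Levels between genes were compared as reads per kilobase of transcript per mega-read of scaled library size (reads per kilobase, for short), summed over a gene's rows. In dKO the order began with Nfkb1 at 488, Nfkbia at 434, Rela at 262 and Nfkb2 at 182 reads per kilobase. It went on with Nfkbiz at 115, Nfkbib at 103, Nfkbie at 78.6, Relb at 74.4, Tnfaip3 at 43.7 and Rel at 6.12. In WT it began with Nfkbia at 377, Rela at 138, Nfkbiz at 137 and Tnfaip3 at 125 reads per kilobase. Nfkb1 at 111, Nfkb2 at 105, Nfkbie at 49.1, Nfkbib at 48.0, Relb at 48.0 and Rel at 7.38 followed. Nfkb1 was thus first in dKO and the fifth in WT, and Tnfaip3 was the ninth in dKO and the fourth in WT. Neighbours that did not differ beyond their counting intervals in WT were Rela and Nfkbiz, and likewise Nfkbie, Nfkbib and Relb. In dKO no neighbours had overlapping intervals. The row of Rel is 2584 bases long and the longest GENCODE M21 transcript of the gene 7466 bases, so reads in the rest of that transcript may not be in its count. The longest row also fell short for Tnfaip3 (4422 against 6199 bases), Relb (2200 against 3273) and Nfkb2 (3205 against 3846). It did so for Nfkbie (2437 against 3006) and Nfkbiz (3855 against 4115) too.

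By this measure Nfkb1 made up 48.2% of the reads per kilobase of the 5 subunit genes in dKO and 27.2% in WT. The other subunits took smaller shares in dKO, with 25.9% in dKO and 33.7% in WT for Rela, 18.0% in dKO and 25.6% in WT for Nfkb2, 7.35% in dKO and 11.7% in WT for Relb, and 0.604% in dKO and 1.80% in WT for Rel. The subunit total was 1013 reads per kilobase in dKO and 409 in WT. The total of the 4 IκB family genes, which leaves out Bcl3 and Nfkbid, was 730 in dKO and 611 in WT. The subunit total stood above it in dKO and below it in WT, and the dKO subunit total rested to 48.2% on Nfkb1 alone. Nfkb1 and Nfkb2, whose uncut products hold other subunits back, are counted only as subunits here. Nfkbiz, whose product works in the nucleus, is counted in the IκB family total. These totals are of RNA, and the balance between the proteins was not tested. Among the 4 IκB family genes Nfkbia took 59.4% in dKO and 61.7% in WT, Nfkbiz 15.7% in dKO and 22.4% in WT, and Nfkbib 14.1% in dKO and 7.86% in WT.

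**Figure D3:**
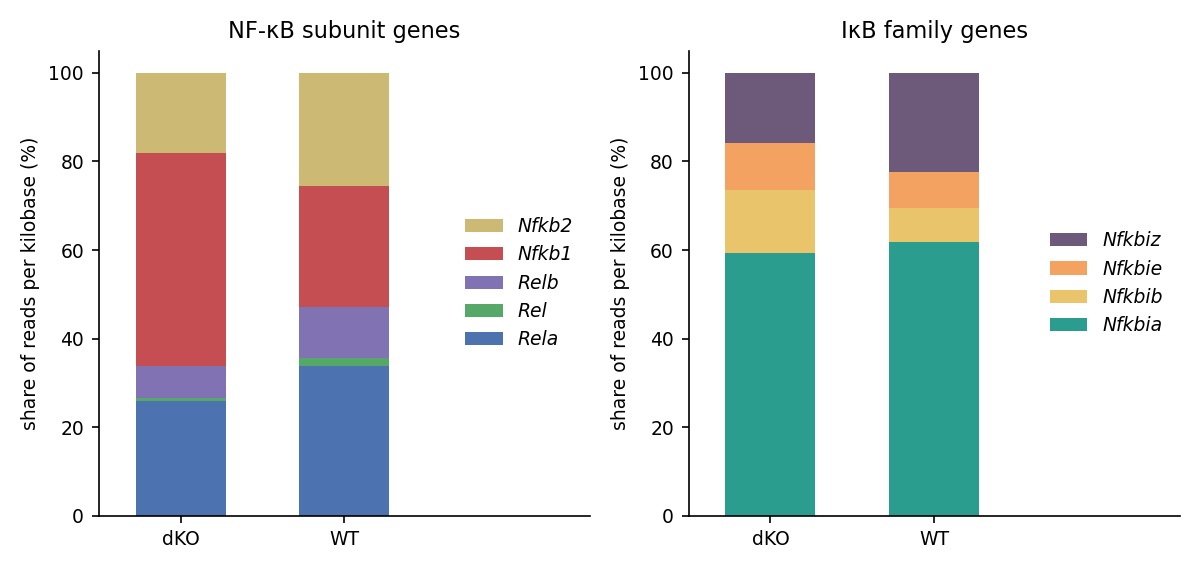
Share of each gene in the reads per kilobase of the 5 subunit genes (left) and of the 4 IκB family genes (right), with dKO to the left of WT in each panel. The Nfkb1 segment is 48.2% in dKO and 27.2% in WT, while Nfkbia holds 59.4% of its family in dKO and 61.7% in WT.

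Each gene's reads were deposited by transcript row, 18 rows in all, and 6 genes had several. The labels do not state how reads shared by several transcripts were divided, and rows are named by their length. In Nfkbiz the rows moved apart. The 3625-base row had 9812 counts in dKO and 16493 in WT, 1.68-fold lower in dKO (1.64 to 1.72). The 3855-base row had 5691 counts in dKO and 2023 in WT, 2.81-fold higher in dKO (2.67 to 2.96). Its share of the gene's reads was 33.6% in dKO (32.9 to 34.3, exact binomial) and 10.1% in WT (9.73 to 10.6). The 3507-base row had 1448 counts in dKO and 1424 in WT, so the small difference of the Nfkbiz sum, 1.18-fold, combined rows of opposite direction.

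Both Tnfaip3 rows were lower in dKO. The 4422-base row had 7226 counts in dKO and 19664 in WT, 2.72-fold lower (2.65 to 2.80), and the 4337-base row had 501 in dKO and 2381 in WT, 4.75-fold lower (4.32 to 5.25). The 1367-base row of Nfkbib had 5016 counts in dKO and 2179 in WT, 2.30-fold higher (2.19 to 2.42). Its 2065-base row had 923 in dKO and 675 in WT, 1.37-fold higher (1.24 to 1.51), so the difference of the gene lay mostly in the shorter row.

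The rows of Nfkb2, Nfkbie and Relb had the same direction within each gene. In Nfkb2 the 3054-base row had 11128 counts in dKO and 5912 in WT, the 3205-base row 8683 in dKO and 5576 in WT, and the 2973-base row 2797 in dKO and 1549 in WT. In Nfkbie the 2437-base row had 6399 counts in dKO and 4014 in WT and the 2369-base row 1229 in dKO and 747 in WT. In Relb the 2194-base row held 6363 of the counts in dKO and 4089 in WT, and the 2200-base row 174 in dKO and 123 in WT. Over all genes, 734 rows were listed at 0 in one library with at least 100 counts in the other, so single rows are a less secure measure than a gene's sum.

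**Figure D4:**
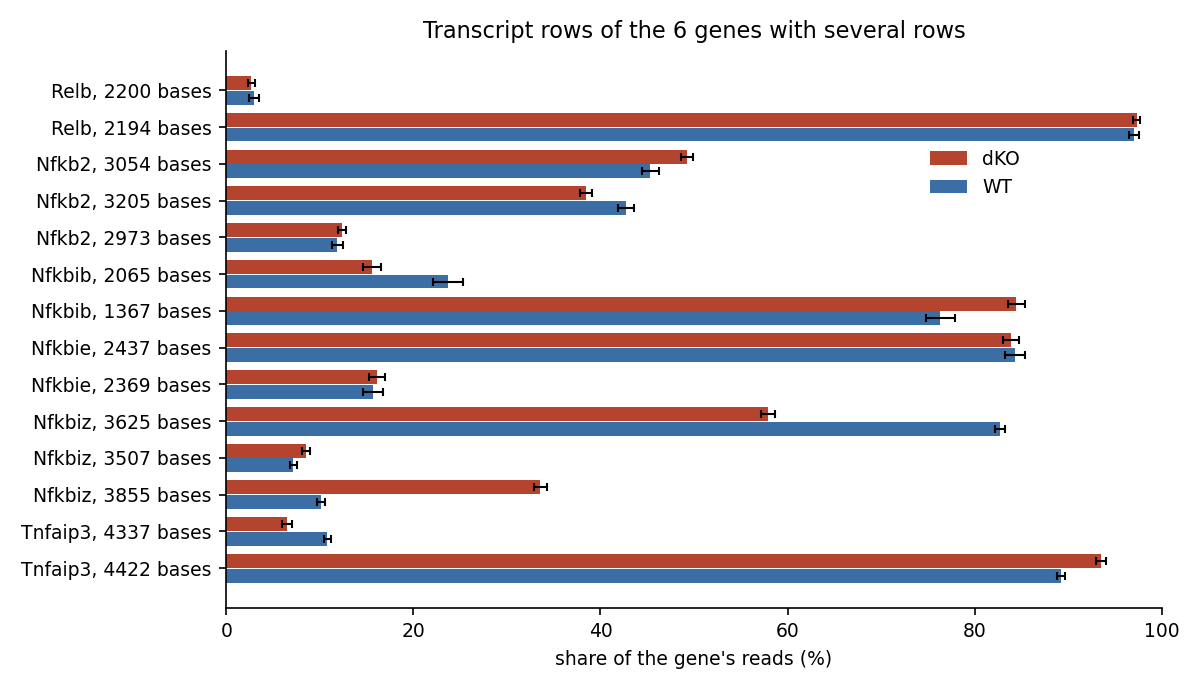
Share of a gene's reads in each of its transcript rows, named by length, in dKO (red) and WT (blue), with exact 95% binomial intervals. The 3855-base row of Nfkbiz holds 33.6% in dKO and 10.1% in WT, while the rows of Relb and Nfkbie keep nearly equal shares.

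The rest of the pathway was read from 7 lists that held 101 genes, of which 91 were measured, 7 were higher in dKO by 2-fold and 6 were lower. Their median log2 ratio was 0.06. Over all measured genes these shares were 1.92% higher and 4.30% lower, and over the 91 genes 7.69% and 6.59%. Since the lists were drawn up with this contrast known, nothing is read from the shares.

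Among the 8 measured ligand genes 0 were higher and 1 was lower, and with a pseudocount of 0.1 CPM in place of 1 CPM 4 were higher and 2 lower. Their median log2 ratio was 0.28, and −0.02 over those with at least 100 counts. Il18, a cytokine gene of the IL-1 family, had 475 counts in dKO and 230 in WT, 2.06-fold higher in dKO (1.76 to 2.43) with a log2 ratio of 0.93 after the pseudocount. The scarce Tnfsf11, the gene of the RANK ligand, had 38 counts in dKO and 8 in WT, 4.75-fold higher (2.18 to 11.8). The scarce Tnfsf13b had 36 counts in dKO and 14 in WT, and Ltb had 30 in dKO and 12 in WT. The lower gene was Il1b, a cytokine gene of myeloid cells, which had 34 counts in dKO and 186 in WT (5.47-fold lower, 3.78 to 8.14). The abundant ligand genes Tnfsf12, which encodes TWEAK, and Il33 had log2 ratios of −0.17 and 0.13. Tnf had 23 counts in dKO and 64 in WT and was scarce in both libraries.

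Of 15 measured receptor genes 1 was higher and 1 lower by 2-fold, and 6 lay above and 9 below a log2 ratio of 0. Their median log2 ratio was −0.07, and 0.55 over those with at least 500 counts. Tnfrsf12a, the TWEAK receptor gene, had 34458 counts in dKO and 14742 in WT (861 CPM in dKO and 368 CPM in WT) and was 2.34-fold higher in dKO (2.29 to 2.38). Its log2 ratio of 1.22 became 0.97 under library totals, which lies short of the 2-fold line. It lay 1.25 above the median of all measured genes under the main scaling and 1.21 above it under totals. Scaling moves a gene and that median together, so these values are close by construction. Tnfrsf1a, the main TNF receptor gene, had 19267 counts in dKO and 11208 in WT, 1.72-fold higher (1.68 to 1.76). Il1r1, the IL-1 receptor gene, had 8527 counts in dKO and 5077 in WT, 1.68-fold higher (1.62 to 1.74). Tnfrsf11a, the RANK gene, had 16 counts in dKO and 83 in WT and was 5.19-fold lower (3.01 to 9.50). Tlr2, a Toll-like receptor gene, had 238 counts in dKO and 505 in WT, 2.12-fold lower (1.82 to 2.49). Its log2 ratio of −0.97 after the pseudocount lay just short of the line.

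Genes between receptor and IκB were closer in level. Of the 21 adaptor and upstream kinase genes, 0 were 2-fold apart in either direction, with log2 ratios from −0.69 to 0.79 and a median of 0.07. The abundant Ripk1, a kinase at the TNF receptor, and Birc3, a ubiquitin ligase beside it, had log2 ratios of 0.23 and 0.15. The IKK complex genes Chuk, Ikbkb and Ikbkg had log2 ratios of 0.06, −0.26 and −0.52. Bcl3, a nuclear IκB family gene, had 16476 counts in dKO and 12522 in WT (log2 ratio 0.39), and Nfkbid, another, had 96 in dKO and 135 in WT (−0.36).

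Of 18 other inhibitor genes of the pathway 0 were higher and 2 lower by 2-fold, 7 lay above and 11 below 0, and the median log2 ratio was −0.13. The lower genes were scarce. Sigirr, a decoy-like member of the IL-1 receptor family, had 4 counts in dKO and 81 in WT (20.3-fold lower, 7.61 to 76.1), and Traf1, an adaptor gene, had 26 in dKO and 97 in WT (3.73-fold lower, 2.40 to 6.00). Neither reached 2-fold with a pseudocount of 5 CPM. Tnip3, whose product binds A20, lay barely short of the line, with 8 counts in dKO and 56 in WT (lower by 3.32-fold to 17.0-fold, the 95% interval). The count of lower genes was 3 under library totals or with a pseudocount of 0.1 CPM. It was 5 with the row of highest share and 0 with at least 100 counts. The most abundant, Zfp36, which encodes an RNA-binding protein that destabilises cytokine transcripts, and Tax1bp1, an A20 partner, had log2 ratios of −0.20 and 0.40.

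Known NF-κB target genes had 6 of 24 measured members higher in dKO by 2-fold and 2 lower, beside 1.92% higher and 4.30% lower over all measured genes. The median of their log2 ratios was 0.58, or 0.67 with the 2 genes listed at 0 in WT set against a floor of 3 counts there. This list leaves out Nfkbia and Tnfaip3, the classical targets described above, whose log2 ratios were 0.20 and −1.51. It is thus a part of the known targets and not all of them. The cytokine gene Lif had 7193 counts in dKO and 875 in WT, 8.22-fold higher (7.66 to 8.83). The neutrophil chemokine genes Cxcl5 and Cxcl2 had 792 and 4805 counts in dKO against 66 and 1678 in WT, 12.0-fold (9.32 to 15.7) and 2.86-fold (2.71 to 3.03) higher. Ptgs2, the inducible cyclooxygenase gene, was 2.68-fold higher (2.48 to 2.89), and the abundant chemokine gene Cxcl1 2.06-fold higher (2.04 to 2.09). Csf2, a growth factor gene of myeloid cells, had 81 counts in dKO and 0 in WT. It was 27.0-fold higher against a floor of 3 counts in WT, and its 95% interval reaches down to 21.5-fold.

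The targets that were lower were Sele, an adhesion molecule gene of activated endothelium, with 257 counts in dKO and 990 in WT (3.85-fold lower, 3.36 to 4.44), and Lcn2, named after its value was seen, with 48 in dKO and 163 in WT (3.40-fold lower, 2.45 to 4.79). Il1b and Sele belong to cell types whose markers were also lower in dKO, and the part of those cells in these values was not tested. Vcam1, a target gene and the protein the cells were sorted on, had 42383 counts in dKO and 23795 in WT (log2 ratio 0.83). Without it, a choice made after the data were seen, the median of the targets was 0.52.

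**Figure D5:**
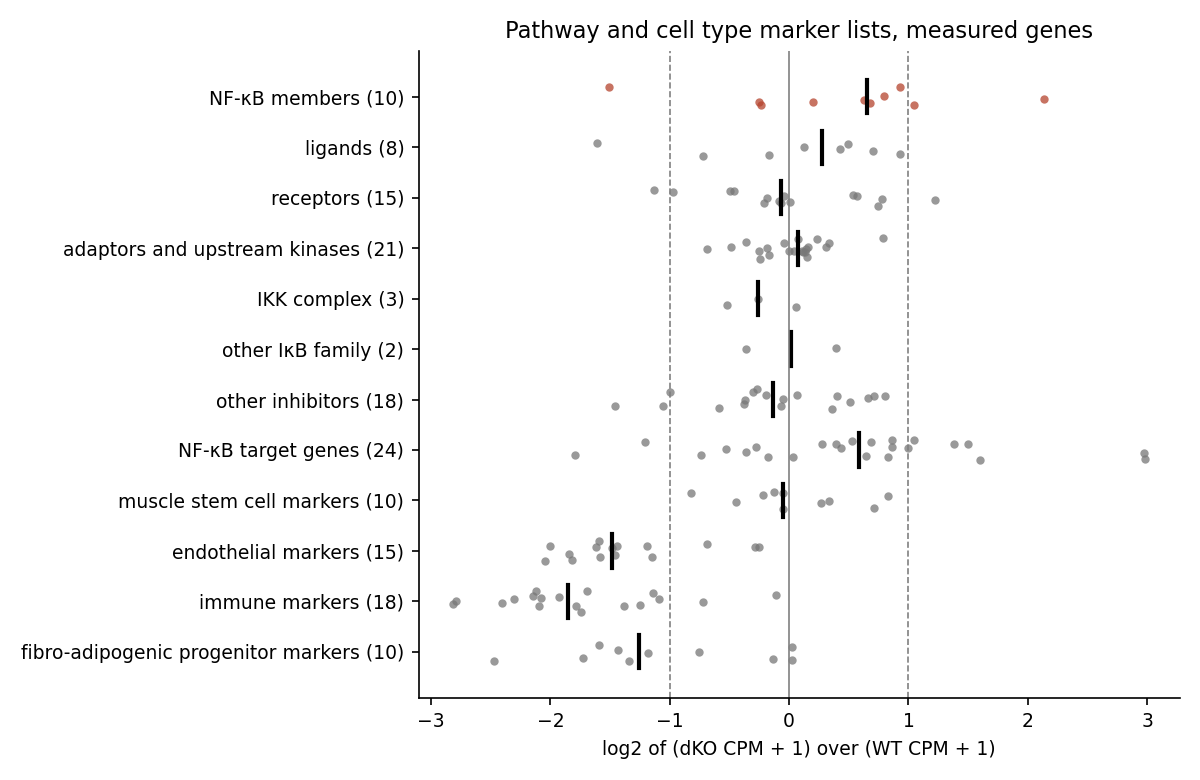
log2 ratio of dKO over WT for every measured gene of the pathway and marker lists, with the number of measured genes in brackets, black bars at medians and dashed lines at 2-fold. The NF-κB genes (red) run from −1.51 to 2.13, target genes have a median of 0.58, and endothelial and immune markers have medians of −1.48 and −1.86.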

How the data were processed

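The deposited values are whole-number read counts, 1 row per transcript, beside its length and Entrez ID, per the file headers. The mm10 build, edgeR, bedtools and TopHat2 2.0.9 were used, in roles that are not stated, per the submitters' processing notes. How reads were counted, on which annotation and with which strand setting is not given in the sources here. Of the 24532 gene IDs, 24462 matched a symbol in RefSeq genes of GRCm38.p6, the assembly that mm10 names. A few genes are not reported here.

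A gene's value was the sum of its rows, since single rows can be 0 in 1 library while the sum is not. Library sizes were scaled by the trimmed mean of M values (TMM; edgeR 4.0.16, R 4.3.3), with factors of 0.916 for dKO and 1.09 for WT. Calls used log2 of (dKO CPM + 1) over (WT CPM + 1) at or past 1 in size, where the higher library had at least 10 counts. Folds are ratios of CPM without a pseudocount, with exact conditional binomial 95% intervals (scipy 1.17.1). Amplified reads are not independent molecules, so intervals and floors cover counting error only. No test between groups was possible with 1 library each. The fold rule and the ratio intervals were tried on simulated counts that held counting error only, so spread between mice or libraries was not covered. The genes, the lists and the alternatives were chosen with earlier results of these data known. Of each list, the genes past 2-fold (at most 6) and the 2 most abundant were named. Other genes of the lists, such as Tnf, Ikbkg, Lcn2, Il18, Tnfsf11, Il1r1, Tlr2, Tnip3, Pax7 and Sdc4, were added after their values were seen. Col3a1 and Cd34 were added in the same way.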

Additional observations from a re-analysis of the deposited data

How the results depend on the processing

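Under median-ratio scaling, library totals, pseudocounts of 0.1 and 5 CPM and the row with the highest share, each gene kept its sign except Nfkbia under totals (−0.05), and each kept its side of the 2-fold line except Nfkbib under totals (0.80). Totals moved the median of all measured genes by −0.22, and Nfkbib lay 1.04 above that median, a distance that scaling hardly changes by construction. The number of the 10 genes higher in dKO was 2, and it was 1 under totals, 6 by a 1.5-fold rule and 1 by a 4-fold rule, which left 0 lower genes in place of 1. Over all genes, 286 were higher and 640 lower. These became 130 and 1040 under totals, 698 and 1653 with a pseudocount of 0.1, 154 and 187 with one of 5, 474 and 936 with the row of highest share, 1336 and 1955 by the 1.5-fold rule, and 25 and 56 by the 4-fold rule. With at least 500 counts, a limit chosen after the data were seen, 213 were higher and 260 lower. Of the pathway lists, 7 genes were higher and 6 lower. These became 13 and 11 with a pseudocount of 0.1, 21 and 12 by the 1.5-fold rule, and 2 and 0 by the 4-fold rule. The lower genes alone became 1 with a pseudocount of 5, 11 with the row of highest share, 3 with at least 100 counts and 1 with at least 500. With counts divided by the length of a gene's longest row, 7 of 10 genes kept their rank in dKO and 8 of 10 in WT. A limit with fewer genes, or a pseudocount large beside low levels, leaves fewer calls by construction, and the other causes were not tested. No paired analysis was possible because each group has 1 library. No replicate could be left out for the same reason, and counting intervals are wide for scarce genes such as Sigirr and Csf2.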
